A study of Homo sapiens with 20 samples.

Results

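Wnt signalling is known to switch on a set of genes whose products mostly dampen the pathway or tune its receptors, and 10 of them were followed here: AXIN2, NKD1, NKD2, LGR4, LGR5, LGR6, RNF43, ZNRF3, NOTUM and SP5. The members were all probe sets annotated to these symbols, which gave 18 of the 54675 probe sets on the array and 10 of the 19775 genes tested. RNA was measured on 20 Affymetrix arrays from MII cells (MCF10-T1k), an established human mammary epithelial line transformed with RAS, grown with horse serum, insulin, EGF, hydrocortisone and cholera toxin. All cells received siRNA by lipofection, and the 5 groups of 4 replicates (A to D) carried siRNA against GFP (control), against APC (siAPC), against APC and TAZ (siAPC/siTAZ), against beta-catenin (sibcat) or against beta-catenin and TAZ (sibcat/siTAZ). TAZ siRNA was given in these groups only on top of APC or beta-catenin depletion, so its effect on otherwise untreated cells was not analysed here. MII is a single transformed line, and its replicates are labelled biological with no word on separate cultures, so the p-values measure the spread between these samples.

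Beta-catenin is held low by a destruction complex that contains APC and AXIN proteins; when the complex fails, beta-catenin enters the nucleus and activates genes through TCF/LEF factors. Several of these target genes close a feedback loop. AXIN2 is a scaffold that rebuilds the complex, NKD1 and NKD2 bind Dishevelled, RNF43 and ZNRF3 are membrane ubiquitin ligases that remove Frizzled receptors, LGR4, LGR5 and LGR6 are R-spondin receptors that neutralise those ligases, NOTUM is a secreted enzyme that strips the lipid from Wnt ligands, and SP5 is a transcriptional repressor. TAZ (gene WWTR1) is a coactivator of TEAD factors that has also been placed within the destruction complex, and the series title presents it as a mediator of Wnt signalling.

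Promoter windows from RefSeq (GRCh38.p14, 250 bases before to 50 after a gene start, 300 bases each) were matched for 5 of the 10 members, with 8 windows in all; AXIN2, NKD1, LGR5, ZNRF3 and NOTUM had no entry. Each window was searched on both strands for the TCF/LEF core CTTTGA and the TEAD core GGAATG, which do not overlap each other. A choice of 4 windows is shown because they span the contrast found: the SP5 window (chr2:170715087-170715386, plus strand), the RNF43 windows at its outer start (chr17:58417485-58417784, minus strand) and inner start (chr17:58402672-58402971, minus strand), and the NKD2 window (chr5:1008552-1008851, plus strand). Letters run 5′ to 3′ as the table lists them, and capitals mark the core matches.
SP5: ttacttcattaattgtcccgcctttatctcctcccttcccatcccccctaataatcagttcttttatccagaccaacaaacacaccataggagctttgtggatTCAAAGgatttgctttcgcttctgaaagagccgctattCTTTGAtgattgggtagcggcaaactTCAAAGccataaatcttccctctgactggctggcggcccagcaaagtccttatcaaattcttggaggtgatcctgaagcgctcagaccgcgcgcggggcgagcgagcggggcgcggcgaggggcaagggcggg
RNF43 outer start: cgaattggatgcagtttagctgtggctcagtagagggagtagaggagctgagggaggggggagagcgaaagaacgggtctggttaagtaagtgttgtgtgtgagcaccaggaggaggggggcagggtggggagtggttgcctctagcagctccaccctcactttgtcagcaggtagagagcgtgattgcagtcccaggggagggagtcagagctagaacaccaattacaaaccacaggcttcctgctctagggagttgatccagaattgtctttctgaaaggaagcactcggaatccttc
RNF43 inner start: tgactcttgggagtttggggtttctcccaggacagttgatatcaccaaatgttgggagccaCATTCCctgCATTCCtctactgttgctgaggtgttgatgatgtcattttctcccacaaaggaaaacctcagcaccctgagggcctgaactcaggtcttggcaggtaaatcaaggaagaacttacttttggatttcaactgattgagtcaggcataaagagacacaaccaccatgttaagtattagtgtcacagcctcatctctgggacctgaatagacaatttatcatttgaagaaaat
NKD2: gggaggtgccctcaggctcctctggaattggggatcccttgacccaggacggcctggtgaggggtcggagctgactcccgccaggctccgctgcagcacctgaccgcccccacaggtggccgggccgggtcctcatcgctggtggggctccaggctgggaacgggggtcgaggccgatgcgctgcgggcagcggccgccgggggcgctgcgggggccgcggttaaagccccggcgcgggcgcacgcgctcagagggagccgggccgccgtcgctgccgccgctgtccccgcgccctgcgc
The SP5 window held 3 TCF/LEF cores and 0 TEAD cores. Of all 35116 windows of this length, 12.9% held at least 1 TCF/LEF core and 0.0997% held 3 or more. The inner RNF43 window held 2 TEAD cores and 0 TCF/LEF cores, where 14% of all windows held at least 1 TEAD core and 1.37% held 2 or more. The outer RNF43 window, the NKD2 window, the LGR4 window and the 3 LGR6 windows held neither motif. A match is a description of these letters, not a bound site.

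The medians of the 20 arrays ran from 5.07 to 5.11 (log2), and the lowest correlation of an array with its group was 0.996. The siRNAs lowered their targets: APC fell by 0.88 after siAPC, CTNNB1 (beta-catenin) fell by 1.335 after sibcat (log2, limma adjusted p = 4.42e-11 and 3.57e-14), and WWTR1 fell by a further 2.67 and 2.21 when TAZ siRNA was added to siAPC and to sibcat. All 6 measured mammary epithelial markers, such as KRT5 and CDH1, lay above the array median on all 20 arrays. Of the 4 measured leukocyte markers and the 5 endothelial markers, none did so on all 20. PTPRC stayed between 2.47 and 2.95, but CD14 read 7.74 to 7.92 and PECAM1 6.36 to 6.74 on the control arrays. These genes lay above the array median on every array outside the siAPC group, where the lowest array of each read 4.98. Among 6 fibroblast markers, COL1A1, DCN and PDGFRB lay above the median on all 20 arrays, while LUM stayed between 2.68 and 2.98. In these bulk samples, fewer cells of a type and less RNA per cell cannot be told apart.

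**Figure D1:**
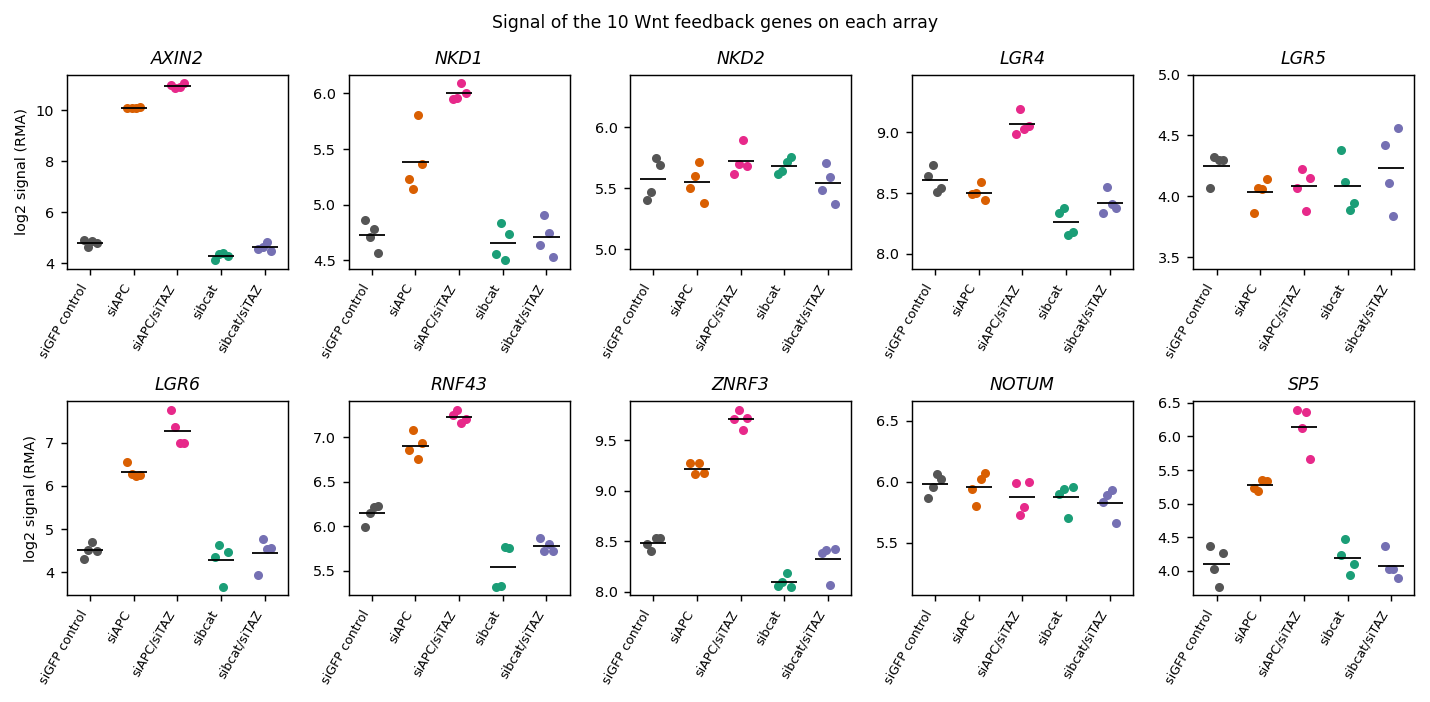
Log2 RMA signal (y axis) of the 10 feedback genes in the 5 siRNA groups (x axis), 1 point per array and a bar at each group mean. AXIN2 lies between 4.62 and 4.90 on the control arrays and between 10.08 and 10.14 on the siAPC arrays, and the siAPC/siTAZ arrays lie higher still, whereas NKD2, LGR5 and NOTUM keep overlapping groups.

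The first comparison asked which feedback genes respond when APC is depleted. Of the 10 genes, 6 rose (AXIN2, NKD1, LGR6, RNF43, ZNRF3 and SP5), none fell, and 4 were not called (limma, Benjamini-Hochberg adjusted p under 0.05). Across all genes tested 21.3% were called higher and 18.7% lower. The median difference was 0.70 over the 10 members and -0.0025 over all genes. The 6 genes that rose were also the ones whose 4 siAPC arrays did not overlap the 4 control arrays, which held for 38.5% of all genes.

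AXIN2 gave the largest response of the 10 by the probe set of highest mean signal, 222696_at. On the control arrays A to D its log2 signal was 4.90, 4.62, 4.86 and 4.79, and on the siAPC arrays it was 10.08, 10.09, 10.08 and 10.14. Every siAPC array therefore stood more than 5 log2 units above every control array. The rise was 5.305 ± 0.08 (SE, n = 4 against 4, adjusted p = 4.07e-20). With its 4 probe sets averaged it was 1.57 (adjusted p = 1.31e-14), below the 1.82 of LGR6. The control arrays of AXIN2, NKD1, LGR6 and SP5 lay below the array median, and detection calls were not used here, so differences of these genes from groups that low are given on the log2 scale of the array signal, with no fold. NKD1 read 4.86, 4.71, 4.78 and 4.57 on the control arrays and 5.23, 5.14, 5.81 and 5.37 on the siAPC arrays, with no overlap and replicate C the highest. Its rise was 0.66 ± 0.12 (adjusted p = 1.09e-04).

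Both membrane ubiquitin ligases rose by similar amounts. RNF43 read 5.99, 6.15, 6.21 and 6.23 in control cells and 6.86, 7.08, 6.75 and 6.93 after siAPC, a rise of 0.76 ± 0.10 (adjusted p = 1.77e-06). ZNRF3 read 8.47, 8.40, 8.53 and 8.53 in control cells and 9.27, 9.16, 9.27 and 9.17 after siAPC, a rise of 0.735 ± 0.07 (adjusted p = 1.95e-08). Neither gene had overlapping arrays. Their R-spondin receptors split. LGR6 read 4.32, 4.52, 4.71 and 4.49 in control cells and 6.55, 6.28, 6.22 and 6.26 after siAPC, a rise of 1.82 ± 0.20 (adjusted p = 3.52e-07). LGR4 read 8.64, 8.73, 8.51 and 8.54 in control cells and 8.49, 8.50, 8.59 and 8.44 after siAPC, with overlapping arrays and a difference of -0.10 ± 0.06 (adjusted p = 0.251; 95% interval -0.23 to 0.03).

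The repressor SP5 read 4.37, 4.03, 3.76 and 4.26 in control cells and 5.23, 5.19, 5.35 and 5.33 after siAPC, again without overlap. It rose by 1.17 ± 0.16 (adjusted p = 3.5e-06). NKD2, LGR5 and NOTUM were not called, with differences of -0.03, -0.215 and -0.02. The RNA quality measure that sets 3′ against 5′ probe sets of ACTB moved with this comparison, from 1.78 to 1.92 in control cells to 1.54 to 1.6 after siAPC (log2). The summed level of the 6 fibroblast markers moved too, from 12.50 to 12.62 in control cells to 11.54 to 11.61 after siAPC, and that of the 4 leukocyte markers from 8.16 to 8.27 to 6.27 to 6.64, with CD14 and LYZ called lower and PTPRC and CD3E not called. The 5 endothelial markers went from 7.36 to 7.63 to 6.56 to 6.89, with PECAM1 (-1.31) and KDR (-1.025) called lower and the other 3 not called. The part of these in the siAPC result was not tested.

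**Figure D2:**
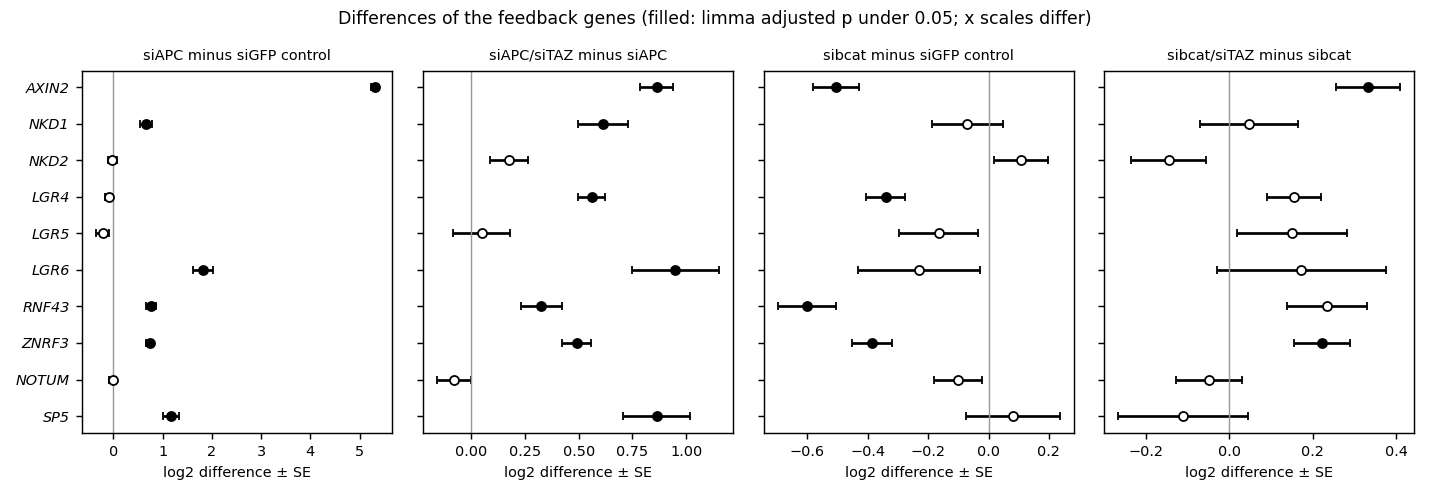
Log2 differences (x axis, with SE) of the 10 feedback genes (y axis) in the main comparisons, with filled points for a limma adjusted p under 0.05 and x scales that differ between panels. AXIN2 leads the siAPC panel at 5.305, and the sibcat panel holds called genes only below 0.

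Depletion of beta-catenin asked how much of the members' signal in unstimulated culture needs it. Of the 10 genes, 4 fell (AXIN2, LGR4, RNF43 and ZNRF3) and none rose, against 15.7% of all genes called lower and 21.4% called higher. The median difference was -0.20 over the members and 0 over all genes. These 4 were also the members whose groups of arrays did not overlap, as for 33.4% of all genes.

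RNF43 gave the largest fall. On the sibcat arrays it read 5.32, 5.33, 5.77 and 5.75, all below the lowest control array, and it fell by 0.60 ± 0.10 on the log2 scale (adjusted p = 3.57e-05). AXIN2 read 4.11, 4.36, 4.38 and 4.30 after sibcat and fell by 0.505 ± 0.08 (adjusted p = 2.32e-05). All 4 of its sibcat arrays were thus below the control arrays, and both groups lay below the array median. With its 4 probe sets averaged the fall was 0.26 (adjusted p = 0.00106). ZNRF3 read 8.06, 8.10, 8.18 and 8.05, a fall of 0.385 ± 0.07 (adjusted p = 9.38e-05). LGR4, the receptor that did not pass the test after siAPC, read 8.34, 8.38, 8.16 and 8.18 and fell by 0.34 ± 0.06 (adjusted p = 0.000244), or by 0.16 with its 3 probe sets averaged (adjusted p = 0.0378). Marker levels moved with this comparison as well. The summed fibroblast level went from 12.50 to 12.62 in control cells to 12.02 to 12.11 after sibcat, with COL1A1, COL3A1 and DCN called lower and the other 3 not called. The epithelial level went from 14.38 to 14.42 to 14.14 to 14.29, with KRT8 and KRT18 called higher and the other 4 lower. The leukocyte level went from 8.16 to 8.27 to 7.90 to 8.01, with CD14 and LYZ called lower and the other 2 not called. The part of these shifts in the falls was not tested.

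The 3 other genes that rose after siAPC were not called after sibcat. NKD1 read 4.56, 4.84, 4.50 and 4.74 (difference -0.07, 95% interval -0.31 to 0.17). LGR6 read 4.35, 4.64, 3.67 and 4.46 (-0.23, interval -0.65 to 0.19), with replicate C apart from the others. SP5 read 4.23, 4.47, 3.94 and 4.10 (0.08, interval -0.25 to 0.41). The control arrays of all 3 genes lay below the array median. NKD2, LGR5 and NOTUM were not called either, with differences of 0.11, -0.165 and -0.10. The siAPC and sibcat comparisons share the 4 control arrays, so their values are set side by side only.

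The direct comparison of siAPC with sibcat does not subtract those arrays, which enter only its estimate of the spread. After siAPC 7 members were higher than after sibcat and none was lower, against 16.3% of all genes higher and 17.5% lower. The same 7 had arrays that did not overlap, as for 32.7% of all genes. AXIN2 was higher by 5.81 ± 0.08 (1.83 with its probe sets averaged), LGR6 by 2.05 ± 0.20, SP5 by 1.09 ± 0.16 and NKD1 by 0.73 ± 0.12, from sibcat arrays that again lay below the array median. RNF43 was 2.57-fold higher (1.36 ± 0.10), ZNRF3 2.17-fold (1.12 ± 0.07) and LGR4 1.18-fold (0.24 ± 0.06, adjusted p = 0.00592). Adjusted p-values of the other 6 lay at 4.53e-05 or below. With TAZ siRNA in both arms (siAPC/siTAZ against sibcat/siTAZ), 7 members were again higher and none lower, against 20.8% and 24.2% of all genes. AXIN2 was then higher by 6.34 (2.32 with its probe sets averaged), LGR6 by 2.825, SP5 by 2.06 and LGR4 by 0.645 (0.27 with its probe sets averaged).

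Adding TAZ siRNA to APC-depleted cells raised feedback genes further. Of the 10 genes, 7 rose (AXIN2, NKD1, LGR4, LGR6, RNF43, ZNRF3 and SP5) and none fell, against 20.7% of all genes called higher and 22.8% lower. The median difference was 0.525 over the members and -0.025 over all genes. All 7 had arrays that did not overlap, as for 42.4% of all genes.

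AXIN2 read 10.99, 10.87, 10.92 and 11.06 on the siAPC/siTAZ arrays, above every siAPC array. It rose 1.82-fold over siAPC (0.86 ± 0.08, adjusted p = 1.26e-08). NKD1 read 5.95, 5.96, 6.09 and 6.0, with a narrower spread than after siAPC, and rose by 0.61 ± 0.12 (adjusted p = 2e-04). The genes of the receptor system moved in the same direction. LGR6 read 7.76, 7.36, 7.0 and 6.99 and rose by 0.95 ± 0.20 (adjusted p = 0.000618). LGR4 read 8.99, 9.19, 9.03 and 9.05 and rose by 0.56 ± 0.06 (adjusted p = 4.27e-07), so the only LGR receptor that fell after sibcat was called higher here. With its 3 probe sets averaged the rise was 0.16 (adjusted p = 0.0265).

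RNF43 read 7.25, 7.31, 7.16 and 7.20 and rose by 0.325 ± 0.10 (adjusted p = 0.00875), the smallest of the 7 rises. ZNRF3 read 9.71, 9.80, 9.60 and 9.72 and rose by 0.49 ± 0.07 (adjusted p = 3.9e-06). SP5 read 6.40, 6.13, 6.36 and 5.66, with replicate D the lowest, and rose by 0.86 ± 0.16 (adjusted p = 1.09e-04). All of these arrays still lay above the siAPC arrays of the same gene. NKD2, LGR5 and NOTUM differed by 0.175, 0.05 and -0.08 and were not called.

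The siRNA targets themselves were not level between these arms. With TAZ siRNA on top of siAPC, APC fell by a further 0.455 by its brightest probe set (adjusted p = 5.14e-07). Of its 5 probe sets 2 were called lower and 3 were not called. CTNNB1 rose by 0.28 in the same comparison (adjusted p = 8.63e-05), and its other probe sets rose by 0.75 and 0.71. The ACTB 3′ to 5′ difference was 1.87 to 2.07 in siAPC/siTAZ cells, against 1.54 to 1.6 after siAPC. The summed fibroblast marker level was 13.15 to 13.19, against 11.54 to 11.61, and 4 of the 6 were called higher (COL3A1 by 4.78, COL1A1 by 2.68, DCN by 1.18 and COL1A2 by 0.31), whereas PDGFRB was called lower (-0.43) and LUM was not called (-0.01). The summed epithelial level went from 14.37 to 14.41 on the siAPC arrays to 13.93 to 14.03, with KRT5 called higher (0.8) and the other 5 lower. The leukocyte level went from 6.27 to 6.64 to 6.70 to 6.82, with CD14 called higher and the other 3 not called. The part of these shifts in the rise of the feedback genes was not tested.

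In beta-catenin-depleted cells, added TAZ siRNA raised 2 of the 10 members, AXIN2 and ZNRF3, and lowered none, against 18.0% of all genes called higher and 13.7% lower. The members' share was thus close to the background. AXIN2 read 4.55, 4.63, 4.84 and 4.46, above the sibcat arrays without overlap, and rose by 0.33 ± 0.08 (adjusted p = 0.00205). It was not called when its 4 probe sets were averaged (0.11, adjusted p = 0.181). ZNRF3 read 8.38, 8.41, 8.07 and 8.42, with replicate C inside the sibcat range, and rose by 0.22 ± 0.07 (adjusted p = 0.0138). The ZNRF3 call was lost with only the groups compared (0.0714) and without sibcat/siTAZ replicate B (0.0516) or D (0.0537).

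The other 8 members were not called. RNF43 read 5.87, 5.72, 5.8 and 5.72 (difference 0.235, adjusted p = 0.0713) and LGR4 read 8.34, 8.55, 8.41 and 8.38 (0.155, adjusted p = 0.0774), both overlapping the sibcat arrays. RNF43 was called without sibcat replicate C (0.0173) or D (0.0221), and LGR4 without sibcat replicate B (0.0355). Both were also called with a signal filter at 5 or 6 and with trend and robust moderation (adjusted p from 0.0316 to 0.046). NKD1 read 4.64, 4.91, 4.75 and 4.53 (0.05, 95% interval -0.20 to 0.29). LGR6 read 3.93, 4.78, 4.54 and 4.56 (0.17, interval -0.25 to 0.60), and SP5 read 4.37, 4.02, 4.02 and 3.89 (-0.11, interval -0.44 to 0.22). All 3 overlapped their control arrays. NKD2, LGR5 and NOTUM differed by -0.145, 0.15 and -0.05. CTNNB1 fell by a further 1.41 by its brightest probe set when TAZ siRNA was added to sibcat. Its other probe sets differed by -0.48 (called lower) and 0.21 (called higher). The ACTB measure went from 1.76 to 1.87 to 1.98 to 2.12, and the summed fibroblast level from 12.02 to 12.11 to 13.06 to 13.16. The epithelial level went from 14.14 to 14.29 to 13.89 to 13.93, and the leukocyte level from 7.90 to 8.01 to 8.35 to 8.46. The part of all these shifts in this comparison was not tested.

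**Figure D3:**
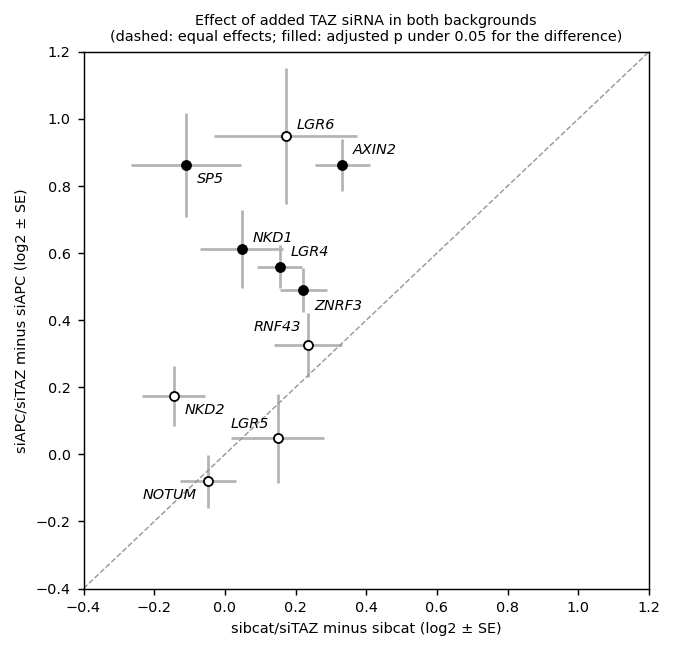
Effect of added TAZ siRNA on the 10 feedback genes in beta-catenin-depleted cells (x axis) against APC-depleted cells (y axis), log2 differences with SE, with a dashed line for equal effects and filled points for a difference between the effects that passed the test. AXIN2, NKD1, LGR4, ZNRF3 and SP5 are filled and lie above the line, and SP5 lies farthest from it at 0.97.

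Whether the TAZ siRNA effect depended on the background was tested as the difference between both effects. It was larger in APC-depleted than in beta-catenin-depleted cells for 5 of 10 members and smaller for none, against 12.2% and 15.5% of all genes. The difference was 0.97 ± 0.22 for SP5 (adjusted p = 0.00197), 0.565 ± 0.17 for NKD1 (adjusted p = 0.0136) and 0.53 ± 0.11 for AXIN2 (adjusted p = 0.000868). In sibcat cells the TAZ siRNA difference of SP5 and NKD1 was not called, whereas AXIN2 rose in both backgrounds. All sibcat and sibcat/siTAZ arrays of AXIN2, NKD1, LGR6 and SP5 lay below the array median. The part of this low signal in their differences between the backgrounds was not tested. LGR4 followed at 0.405 ± 0.09 (adjusted p = 0.00189), but not when its 3 probe sets were averaged (0.09, adjusted p = 0.493).

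ZNRF3 was called at 0.27 ± 0.09 (adjusted p = 0.0403), close to the threshold. It was no longer called with every probe set tested (adjusted p = 0.0631), with equal array medians (0.0674), with only the groups compared (0.058) or with the replicate letter as a block (0.0587). The call was also lost without siAPC replicate B or D, siAPC/siTAZ replicate A, B or D, sibcat replicate B or C, or sibcat/siTAZ replicate C (adjusted p from 0.0599 to 0.0869), and the difference was 0.18 without the last of these. LGR6 just missed the threshold (0.78 ± 0.29, adjusted p = 0.0504) and passed it without sibcat replicate C (0.98, adjusted p = 0.00614). It also passed without siAPC replicate A, siAPC/siTAZ replicate C or D, or sibcat/siTAZ replicate B, and with a signal filter at 5 (adjusted p from 0.03 to 0.0438). RNF43 showed a difference of 0.09 with a 95% interval from -0.19 to 0.37, so a difference in either direction was not resolved for it.

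Against the control cells, which both combined depletions share with the single ones, siAPC/siTAZ raised 7 members and lowered none, against 23.0% of all genes higher and 24.3% lower. AXIN2 stood above control by 6.17 ± 0.08 (2.17 with its probe sets averaged), LGR6 by 2.77 ± 0.20, SP5 by 2.03 ± 0.16 and NKD1 by 1.27 ± 0.12, with all control arrays of these genes below the array median. The order of the group means was the same for AXIN2, NKD1, LGR6, RNF43 and ZNRF3: siAPC/siTAZ highest, then siAPC, control, sibcat/siTAZ and sibcat. In NKD1, LGR6 and SP5 the last 3 groups overlapped and none of their differences was called. For AXIN2 and ZNRF3 the control and sibcat/siTAZ groups did not differ by the test, and for RNF43 the sibcat/siTAZ and sibcat groups did not. LGR4 ran from siAPC/siTAZ to control, siAPC, sibcat/siTAZ and sibcat, with no call between control and siAPC or between the sibcat groups.

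In sibcat/siTAZ cells RNF43 (-0.37 ± 0.10, adjusted p = 0.00343) and LGR4 (-0.185 ± 0.06, adjusted p = 0.0241) were lower than in control cells and no member was higher, against 19.5% of all genes lower and 25.4% higher. The LGR4 call was lost with its 3 probe sets averaged (-0.085, adjusted p = 0.256) and with equal array medians (0.0631). It was also lost without siGFP control replicate A (adjusted p = 0.0583) or B (0.0949), and without sibcat/siTAZ replicate A (0.0761) or D (0.0608). AXIN2 (-0.17, adjusted p = 0.0788) and ZNRF3 (-0.16, adjusted p = 0.0549) were not called. They were called, lower, without control replicate B (0.0222 and 0.0406), AXIN2 also without sibcat/siTAZ replicate C (0.00918) and ZNRF3 also without sibcat/siTAZ replicate B (0.037) or D (0.0326). Both were called, lower, with a filter at 6 (0.041 for AXIN2 and 0.0262 for ZNRF3) and with cyclic loess (0.0179 and 0.00336). AXIN2 was also called with its probe sets averaged (-0.15, 0.0372), and ZNRF3 with a filter at 5 (0.0332) or trend and robust moderation (0.0194). The siAPC mean of LGR4, 8.505, lay below its control mean, 8.605, and its siAPC/siTAZ mean, 9.065, lay above both.

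NKD2, LGR5 and NOTUM were not called in any of the 9 comparisons. NKD2, a Dishevelled-binding relative of NKD1, read 5.4, 5.47, 5.75 and 5.69 in control cells and lay between 5.37 and 5.90 over all 20 arrays. Its siAPC interval ran from -0.22 to 0.16. The difference of its TAZ siRNA effects was 0.32 (adjusted p = 0.0694), and it was called without siAPC replicate C (0.033) or sibcat/siTAZ replicate B (0.0333), with a filter at 5 (0.0416) and with the replicate block (0.0329). Without sibcat/siTAZ replicate B it was also called higher in siAPC/siTAZ than in sibcat/siTAZ cells (0.24, adjusted p = 0.0424). NOTUM read 5.87, 5.96, 6.06 and 6.02 in control cells and stayed between 5.66 and 6.07, and its siAPC interval ran from -0.19 to 0.15. With 1 probe set for each gene, a siAPC difference as large as the 0.735 of ZNRF3 lay outside these intervals. The AXIN2 probe set 224498_x_at had a siAPC interval of -0.37 to 0.20, although 222696_at of the same gene rose by 5.305. A siAPC change of NKD2 or NOTUM itself was therefore not excluded. LGR5, the stem cell receptor, read 4.07, 4.32, 4.30 and 4.30 in control cells and lay below the array median on all 20 arrays with both of its probe sets. Its siAPC interval ran from -0.49 to 0.06 by the brighter probe set, and it was called lower with only the groups compared (-0.215, adjusted p = 0.0499).

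**Figure D4:**
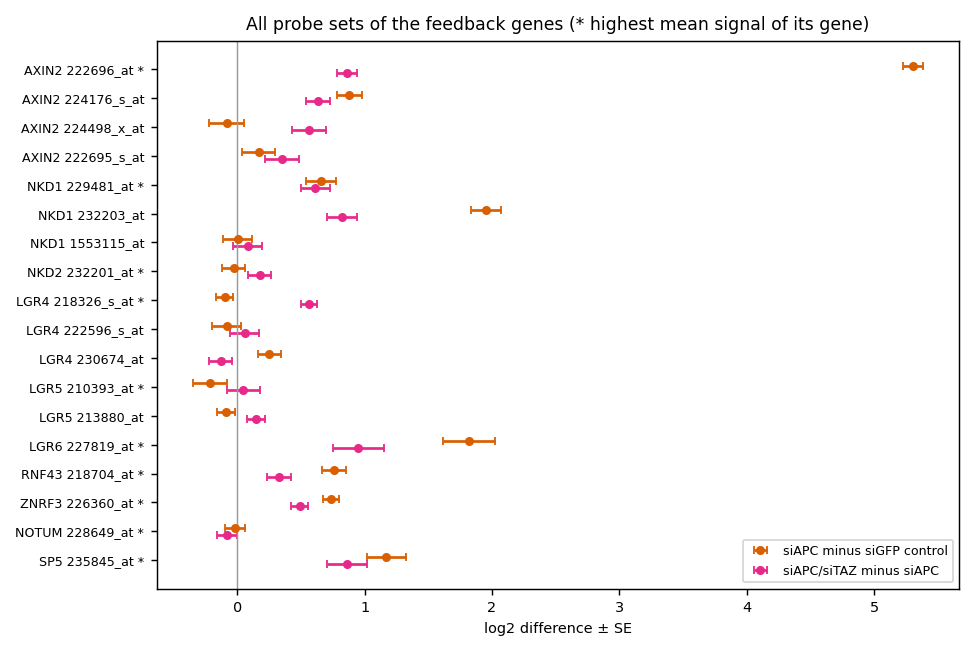
Log2 differences (x axis, with SE) of all 18 probe sets of the feedback genes (y axis) after siAPC and on adding TAZ siRNA to siAPC, with a star at the probe set of highest mean signal of its gene. The AXIN2 probe sets spread from -0.09 to 5.305 after siAPC and from 0.35 to 0.86 on adding TAZ siRNA.

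Of the members, 4 had several probe sets, and these disagreed in size. After siAPC 9 of the 18 probe sets were called higher and 0 lower, against 15.6% and 14.6% of all 54613 probe sets tested, over which these p-values are adjusted. On adding TAZ siRNA to siAPC 11 were called higher and 0 lower, against 19.1% and 16.4%. AXIN2 had 4: 222696_at rose by 5.305 and 224176_s_at by 0.88, while 224498_x_at (-0.09) and 222695_s_at (0.17) were not called. With added TAZ siRNA all 4 AXIN2 probe sets were called higher than after siAPC, by 0.86, 0.63, 0.56 and 0.35. So the siAPC rise rested on 2 AXIN2 probe sets, and the TAZ siRNA rise was called with all 4. With 222695_s_at the siAPC and siAPC/siTAZ arrays overlapped (limma adjusted p = 0.0445). That probe set and 224498_x_at exceeded the array median on only 1 and 2 of the 20 arrays.

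For NKD1 the probe set of second highest mean, 232203_at, gave the clearer response. It read 3.89, 4.06, 3.70 and 4.22 in control cells, 5.82, 5.99, 6.01 and 5.85 after siAPC, and 6.83, 6.65, 6.42 and 7.04 after siAPC/siTAZ. The groups stepped up without overlap, by 1.95 ± 0.12 and a further 0.82 ± 0.12, where the brighter 229481_at gave 0.66 and 0.61. The difference of the TAZ siRNA effects was 0.96 with 232203_at (adjusted p = 0.00023). The NKD1 probe set 1553115_at stayed between 4.15 and 4.91 and was not called. For LGR4, 222596_s_at was not called in any of the 9 comparisons, and 230674_at, below the array median on all 20 arrays, was called higher after siAPC alone (0.25, adjusted p = 0.04). The LGR4 results thus rest on 218326_s_at.

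Other genes of the pathway gave the setting for these values, in lists chosen with earlier results of these data known. Of 26 other beta-catenin/TCF targets 24 were measured. After siAPC 9 rose and 7 fell (37.5% and 29.2%, median 0.04), against 21.3% and 18.7% of all genes. After sibcat 3 rose and 10 fell (12.5% and 41.7%, median -0.125), against 21.4% and 15.7% of all genes. BMP4, a BMP ligand, rose by 4.64 after siAPC and also by 2.39 after sibcat. DKK2, a secreted Wnt modulator, rose by 3.48 after siAPC, LEF1, a TCF family factor, by 2.97 and MSX2, a homeobox factor, by 2.22. On adding TAZ siRNA to siAPC 15 rose and 2 fell (62.5% and 8.33%, median 0.59), against 20.7% and 22.8% of all genes. DKK2 was up by 2.91, ID2 by 1.72 and LEF1 by 1.23, and DKK1 was down (-2.30). With TAZ siRNA added to sibcat 9 rose and 4 fell (37.5% and 16.7%, median 0.10), against 18.0% and 13.7% of all genes. The difference of both effects was higher in APC-depleted cells for 13 of the 24 (54.2%) and lower for none, against 12.2% and 15.5% of all genes. BMP4 stood at 3.23 and DKK2 at 2.75. With TAZ siRNA added, the BMP4 mean went from 8.035 to 5.3975 in sibcat cells, and from 10.285 to 10.8775 in siAPC cells. The BMP4 difference thus lay mostly in its fall in sibcat cells. The DKK2 mean went from 2.5175 to 2.68 in sibcat cells, and from 6.1325 to 9.0425 in siAPC cells.

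Among the ligands and receptors around the ligases and the LGR proteins, calls lay in both directions, in shares near those of all genes after siAPC. Of the 15 measured R-spondins, Frizzleds and LRP co-receptors, 3 rose (20%, against 21.3% of all genes) and 4 fell (26.7%, against 18.7%) after siAPC, with FZD2 at 1.27, FZD7 at 0.67, FZD1 at -0.565 and FZD10 at -2.08. After sibcat 3 rose and 1 fell, against 21.4% and 15.7% of all genes. On adding TAZ siRNA to siAPC 5 rose and 3 fell (33.3% and 20%), against 20.7% and 22.8% of all genes, and FZD7 rose by 0.72. With TAZ siRNA added to sibcat 5 rose and 4 fell (33.3% and 26.7%), against 18.0% and 13.7%, and FZD7 fell by 0.395. The difference of these FZD7 effects was 1.115 (adjusted p = 6.8e-11). Of the 17 destruction complex and Dishevelled genes, 6 rose (35.3%) and 2 fell (11.8%) after siAPC, against 21.3% and 18.7% of all genes. Among them were DVL3 at 0.74 and APC itself. On adding TAZ siRNA to siAPC 4 rose and 5 fell (23.5% and 29.4%), near the 20.7% and 22.8% of all genes. WLS, the carrier that brings Wnt ligands to the surface, rose by 0.67 and 0.675 on adding TAZ siRNA to siAPC and to sibcat. The difference of its TAZ siRNA effects was -0.005 ± 0.06 (adjusted p = 0.969), against 0.53 for AXIN2 and 0.97 for SP5.

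The TEAD target reporters ran the other way from the feedback genes on adding TAZ siRNA. CCN1, CCN2 and ANKRD1 all rose after siAPC, by 3.37, 3.27 and 5.65, and all rose after sibcat, by 2.945, 2.80 and 5.10. On adding TAZ siRNA to siAPC they fell by 3.895, 6.76 and 5.64. The 6 feedback genes that rose after siAPC shared that direction with the reporters, but none of the 6 rose after sibcat, and all 6 rose on adding TAZ siRNA to siAPC.

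**Figure D5:**
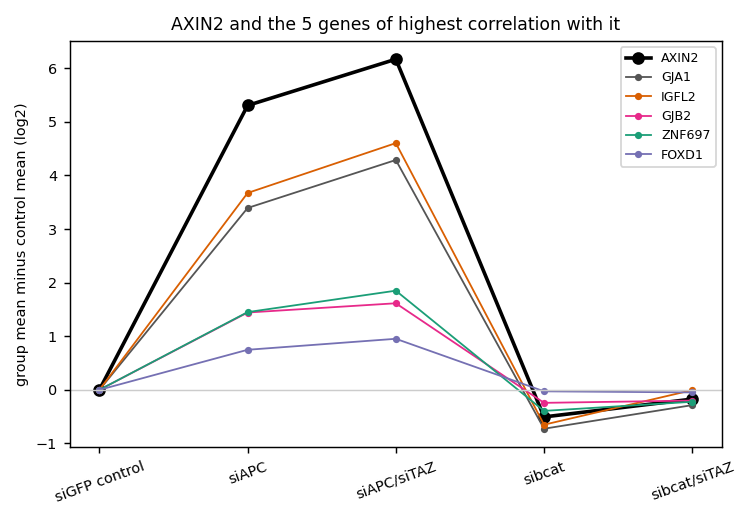
Group mean minus control mean (y axis, log2) of AXIN2 and the 5 genes of highest correlation with it in the 5 siRNA groups (x axis), with lines that only join points of the same gene. The genes peak together in siAPC/siTAZ cells, where AXIN2 reaches 6.17.

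Patterns most like those of the members were sought among 2612 genes whose group means spanned at least 1 log2 unit, by Pearson's r over the 20 arrays, which share the 5 groups. GJA1 and GJB2, gap junction proteins, followed AXIN2 at 0.996 and 0.994, IGFL2 at 0.995, and the transcription factor genes ZNF697 and FOXD1 at 0.993 each. GJA1 had a group mean of 6.40 in control cells, 9.79 after siAPC, 10.69 after siAPC/siTAZ, 5.675 after sibcat and 6.115 after sibcat/siTAZ. Its order of groups was that of AXIN2. Nearest to NKD1 were SMARCA1 (0.978), DKK2 (0.958) and PRDM1 (0.954), and nearest to SP5 were CASC15 (0.969), CADPS (0.968) and CDK6 (0.966). LEF1 (0.971) was among the 3 nearest to LGR6, after SGPL1 (0.975) and FKBP14 (0.971). RNF43 was followed by SLC67A2 (0.975), SOX4 (0.972) and TNFRSF21 (0.972), and ZNRF3 by TNFRSF19 (0.985), RASSF8 (0.984) and ZNF827 (0.983). Among the members, AXIN2 correlated with ZNRF3 at 0.963, LGR6 at 0.963, RNF43 at 0.950, SP5 at 0.935, NKD1 at 0.923 and LGR4 at 0.689. With NKD2, NOTUM and LGR5 it gave 0.156, 0.104 and -0.325.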

How the data were processed

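RNA of 20 arrays was analysed in 5 groups of 4, taken from the sample titles. The deposited values are log2 signals made by the authors with RMA, per the submitters' processing notes. The RMA version, genome build, siRNA sequences, time to harvest and scan dates: not given in the sources used here. RMA quantile-normalises arrays, so a shift shared by most genes would not be seen. Of 54675 probe sets, 41097 had 1 gene symbol; each of 19775 genes was represented by its probe set of highest mean signal, and 62 control probe sets were left out. All arrays entered a model of the 5 group means in limma 3.58.1 in R 4.3.3 (15 residual degrees of freedom, empirical Bayes, two-sided), with Benjamini-Hochberg adjustment over all genes and calls at an adjusted p under 0.05. Intervals are 95% intervals from that fit, not adjusted. Other probe sets were tested in a fit over 54613 probe sets. The fit was tested on simulated data.

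Named genes were the 10 members, the siRNA targets, 3 TEAD target reporters, up to 4 genes of smallest adjusted p from each list, and the 5 genes most correlated with AXIN2 and 3 with each other member whose means span 1 log2 unit. The members and lists were chosen with earlier results of these data known. Alternatives were the mean over probe sets, every probe set, signal filters at 5 and 6, equal array medians, cyclic loess, trend and robust moderation, only the groups compared, a replicate block and leaving out each array. The number of arrays limits the precision.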

Additional observations from a re-analysis of the deposited data

Results flagged for a closer look

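Among 90 groups of 4 arrays, 3 held an array far from the others of its group by Dixon's gap criterion at the 95% level, which by its construction picks out about 1 in 20 groups by chance. AXIN2 in siAPC replicate D read 10.14, against 10.08 to 10.09 on the other siAPC arrays, and the siAPC rise was 5.29 without it. LGR5 (210393_at) in control replicate A read 4.07, against 4.30 to 4.32 on the others. ZNRF3 in sibcat/siTAZ replicate C read 8.07, against 8.38 to 8.42 on the others. Without that array ZNRF3 rose by 0.31 on adding TAZ siRNA to sibcat (adjusted p = 0.000132, limma).

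The effect of added TAZ siRNA differed between APC-depleted and beta-catenin-depleted cells, by the limma test of the difference, for AXIN2 (0.53), NKD1 (0.565), LGR4 (0.405), ZNRF3 (0.27) and SP5 (0.97). For AXIN2, NKD1 and SP5 the sibcat and sibcat/siTAZ arrays lay below the array median, and the part of this low signal was not tested. The LGR4 difference was 0.09 with its probe sets averaged (adjusted p = 0.493). The ZNRF3 call was lost with every probe set tested, equal array medians, only the groups compared or the replicate block (adjusted p from 0.058 to 0.0674), and without any 1 of 8 arrays (0.0599 to 0.0869).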

How the results depend on the processing

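Of 1538 recomputed differences of single members, 1481 kept their side of the threshold, 23 lost the call and 34 gained one. The sign changed in 43, none of them called under either setting. Only 4 members have a mean signal of at least 6. The share of all genes called with a filter at 6 is not given here, so the next counts have no background beside them. With that filter, members called were 3 after siAPC, 4 for siAPC against sibcat, 4 for siAPC/siTAZ against siAPC, against sibcat/siTAZ and against control, 3 for the difference of the TAZ siRNA effects, and 4 for sibcat/siTAZ against sibcat and against control. On adding TAZ siRNA to sibcat, the 2 members called became 1 with the mean over probe sets or only the groups compared, 4 with a filter at 5 or trend and robust moderation, and 1 to 3 on leaving out an array (1 without sibcat/siTAZ replicate B or D, where ZNRF3 was lost at adjusted p = 0.0516 and 0.0537). For sibcat/siTAZ against control the 2 became 1 with equal array medians, 4 with cyclic loess and 1 to 3 on leaving out an array (1 without control replicate A or sibcat/siTAZ replicate A). The difference of the TAZ siRNA effects held for 4 to 7 members on leaving out an array. With every probe set tested, 54613 in place of 19775 tests, called probe sets numbered 16494 after siAPC, 14212 after sibcat, 13610 for siAPC against sibcat, 19396 and 12345 on adding TAZ siRNA to siAPC and to sibcat, 19770 for siAPC/siTAZ against sibcat/siTAZ, 21134 and 19132 for siAPC/siTAZ and sibcat/siTAZ against control, and 10212 for the difference of the TAZ siRNA effects. For the other changes of count the cause was not tested. Whether the replicate letters pair the arrays was not resolved. Same-letter residuals correlated at a median of 0.027, 8 of 40 pairs exceeded 0.1, and 9 of 20 arrays were closest to their own letter. With the letter as a replicate block, 6 members were called after siAPC, 4 after sibcat, 7 and 3 on adding TAZ siRNA to siAPC and to sibcat, and 5 for the difference of the effects, where ZNRF3 was not called (adjusted p = 0.0587) and NKD2 was (0.0329). Signals near the array median or below (LGR5, and AXIN2, NKD1, LGR6 and SP5 without siAPC) limit what could be measured.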
